A study of Mus musculus with 6 samples.

Results

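Vitamin A enters a cell as retinol and is turned into retinoic acid, a signal that acts on nuclear receptors. The genes described here are the enzymes and carriers of that route, with the nuclear receptors left out: Stra6, Rdh10, Dhrs3, Aldh1a1, Aldh1a2, Aldh1a3, Crabp1, Crabp2 and Cyp26b1. They were chosen by name as members of the pathway, with earlier results of these data known, and matched by gene symbol. All 9 were in the deposited table of 54752 genes, and all 9 were among the 17128 genes with enough counts to test. One of them, Aldh1a2, passed that filter through the shARF libraries alone.

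The cells were mouse embryonic fibroblasts (MEFs), fibroblasts grown out of mouse embryos, of a line described as p53-deleted, so both groups lack p53. The shARF group (3 libraries, genotype given as ARF knockdown) received by lentivirus a short hairpin RNA against p19ARF, the tumour suppressor made from Cdkn2a. The shNT group (3 libraries, genotype given as WT) received a negative control hairpin in the same way. All titles carry the tag neo, and all cells grew in medium with fetal bovine serum, which itself carries retinol. The ARF gene is knocked down rather than deleted, and its transcript is counted together with that of p16INK4a. Cdkn2a was at 102 ± 5.57 CPM (counts scaled to a common library total, with TMM factors) in shARF and 224 ± 6.91 CPM in shNT (SD, n = 3 each), a log2 fold change of -1.14.

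Total counts ran from 40261944 to 47023082 per library. Log2 CPM correlated at 0.987 to 0.989 between libraries of one group and at 0.939 to 0.943 between groups. The groups also differed in genes that mark the sex and the body position of the cells of origin, which the labels do not mention. Xist, the RNA of the inactive X chromosome, was at 45.7 ± 7.49 CPM in shARF and 387 ± 26.5 CPM in shNT. The Y-linked Ddx3y was at 85.3 ± 4.19 CPM in shARF and 24.4 ± 1.6 CPM in shNT. Kdm5d, also Y-linked, was at 19.5 ± 0.623 CPM in shARF and 0.782 ± 0.216 CPM in shNT. Hoxb9 was at 6.41 ± 0.563 CPM in shARF and 103 ± 3.28 CPM in shNT, and Hoxd13 at 127 ± 2.91 CPM in shARF and 25.6 ± 1.7 CPM in shNT. An effect of the hairpin and a difference between the cell cultures cannot be told apart in this design. The labels call the replicates biological without naming separate cultures or infections, so a p-value here covers the spread of these libraries, which may be technical.

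As background, Stra6 is a membrane receptor that takes up retinol from its serum carrier. Rdh10 oxidises retinol to retinal, and Dhrs3 reduces retinal back to retinol. Aldh1a1, Aldh1a2 and Aldh1a3 oxidise retinal to retinoic acid, a step that is not reversed, and Aldh1a2 is the main such enzyme of the early embryo, active in mesoderm and later in mesothelium and epicardium. Crabp1 and Crabp2 bind retinoic acid in the cytoplasm, Crabp2 being known for handing it to its nuclear receptors, and Cyp26b1 breaks it down. Dhrs3, Cyp26b1, Crabp2 and Stra6 are themselves known to be induced by retinoic acid in many cell types.

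The promoters of these genes differ widely in base composition, and 4 are shown to give that range, from the window with the most CG pairs to the one with the fewest. RefSeq (GRCm38.p6) gave 12 promoter windows for 6 of the 9 genes, each running from 250 bases before to 50 after a transcript's start. Capitals mark each CG pair. Aldh1a2 (chr9:71215539-71215838, plus strand), Dhrs3 (chr4:144892577-144892876, plus strand, the first of 3 windows), Aldh1a1 (chr19:20601718-20602017, plus strand, the second of 2) and Crabp1 (chr9:54764498-54764797, plus strand) read, 5′ to 3′:
Aldh1a2: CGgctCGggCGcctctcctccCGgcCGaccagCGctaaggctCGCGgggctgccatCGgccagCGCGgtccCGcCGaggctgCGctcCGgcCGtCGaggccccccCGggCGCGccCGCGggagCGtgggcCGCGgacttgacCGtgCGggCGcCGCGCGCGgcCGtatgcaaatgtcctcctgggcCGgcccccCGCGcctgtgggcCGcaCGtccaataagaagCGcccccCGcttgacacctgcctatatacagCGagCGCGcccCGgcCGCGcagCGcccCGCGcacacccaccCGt
Dhrs3: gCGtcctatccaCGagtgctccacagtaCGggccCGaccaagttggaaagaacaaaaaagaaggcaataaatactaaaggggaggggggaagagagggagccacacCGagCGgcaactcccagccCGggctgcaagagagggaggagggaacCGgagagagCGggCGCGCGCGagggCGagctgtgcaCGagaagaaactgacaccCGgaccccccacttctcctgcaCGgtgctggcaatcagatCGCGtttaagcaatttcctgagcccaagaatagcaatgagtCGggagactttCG
Aldh1a1: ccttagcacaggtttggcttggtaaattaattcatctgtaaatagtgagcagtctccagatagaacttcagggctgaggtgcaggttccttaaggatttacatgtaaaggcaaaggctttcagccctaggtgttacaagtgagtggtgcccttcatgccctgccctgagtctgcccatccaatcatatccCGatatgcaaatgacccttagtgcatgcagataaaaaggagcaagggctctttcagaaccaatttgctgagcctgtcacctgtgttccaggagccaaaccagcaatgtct
Crabp1: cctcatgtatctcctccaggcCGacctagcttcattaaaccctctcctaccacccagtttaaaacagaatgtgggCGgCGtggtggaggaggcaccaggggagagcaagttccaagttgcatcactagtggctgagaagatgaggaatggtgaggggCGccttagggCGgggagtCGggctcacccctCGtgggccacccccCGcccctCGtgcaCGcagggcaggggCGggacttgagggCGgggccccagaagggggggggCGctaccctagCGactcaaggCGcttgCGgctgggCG

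The Aldh1a2 window held 50 CG pairs, more than 99.1% of the 32851 RefSeq windows, whose median was 7. The Dhrs3 window shown held 21 (the other two held 10 and 9), the Crabp1 window 17 and the Aldh1a1 window shown 1 (the other held 3). Direct repeats of the receptor half-site, read as any pair of AGGTCA or AGTTCA or GGGTCA or GGTTCA spaced by 1, 2 or 5 bases, were searched on both strands. None of the 12 windows held one, and among all windows they are rare, at 0.222%, 0.268% and 0.0974% for the 3 spacings. Single half-sites, which 43.7% of all windows hold, were found in the Aldh1a1 window shown, 49 to 44 bases before its start, and in 1 Stra6 window. The GC box GGGCGG, held by 35.7% of all windows, was found at 5 places in the Crabp1 window and 3 in that of Cyp26b1, and in 3 of the 4 Stra6 windows. A match is a string of letters and not a bound site, and a missing match says only that these letters are not in this window.

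Between shARF and shNT, 8 of the 9 genes were called: 5 rose in shARF (Crabp2, Dhrs3, Aldh1a1, Aldh1a2 and Cyp26b1) and 3 fell (Stra6, Rdh10 and Crabp1). Aldh1a2, with no count in shNT, could be tested only because it was high in shARF, so its call was fixed by the filter. Leaving it aside, 4 rose and 3 fell. Aldh1a3 did not pass the test. Genes called at an adjusted p under 0.05 (edgeR's quasi-likelihood test) made up 56.4% of all genes tested, 28.8% higher and 27.7% lower, so a call alone is common in this comparison. With library sizes alone as the scaling, the calls over all genes split into 4023 higher and 5874 lower in place of 4930 and 4737, while those among the 9 genes stayed at 5 and 3. Of the 9 genes, 7 were called with a change of at least 2-fold, 4 higher (Aldh1a2 among them) and 3 lower, against 14.4% of all genes tested in either direction. The median log2 fold change was 1.16 over the 9 genes, with Aldh1a2 counted among the rises, and -0.008 over all genes tested. Since the 9 were chosen with earlier results known, these figures describe them and are not independent evidence. For each of the 9, all shARF libraries lay on one side of all shNT libraries, which for Aldh1a2 was fixed by the filter. The groups were apart in this way for 64.6% of all genes tested.

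**Figure D1:**
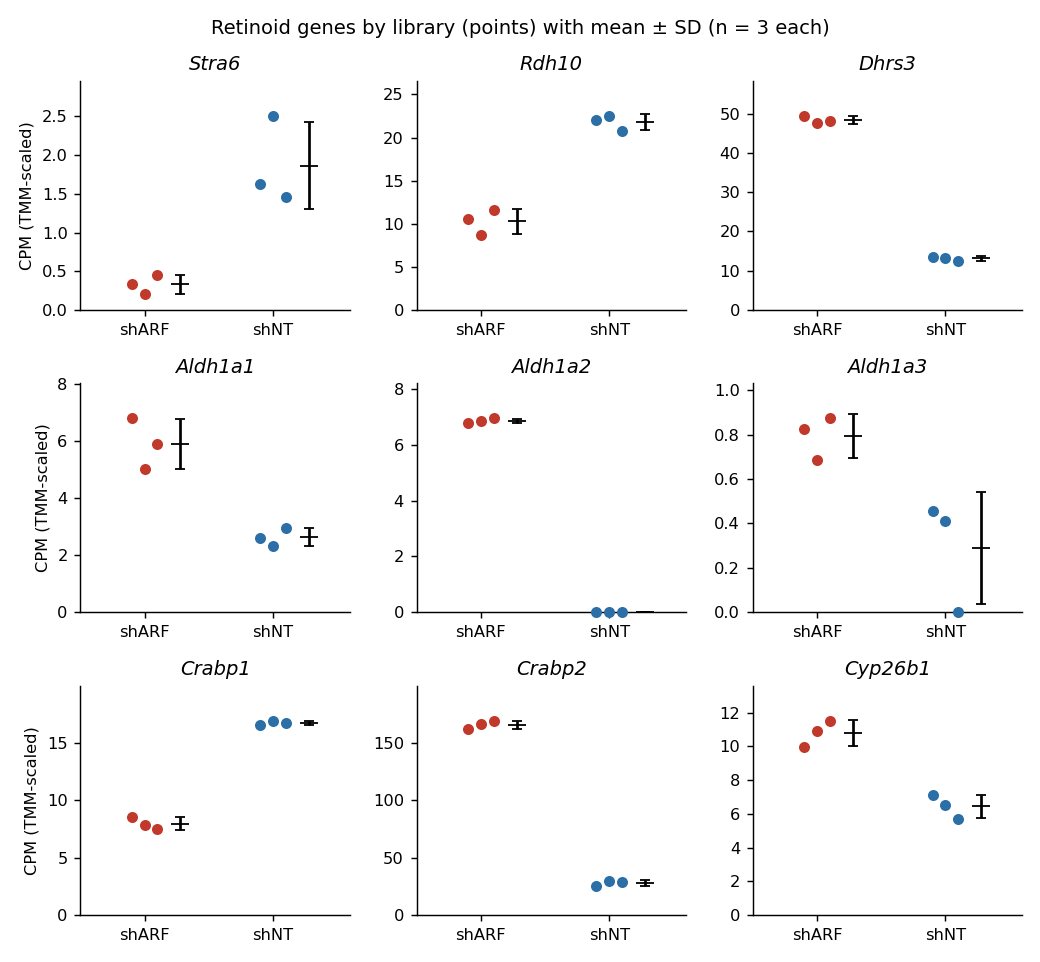
TMM-scaled CPM of each gene in each library (points; shARF left, shNT right), with the mean and SD of the group (bar and whiskers, n = 3 each) beside them; each panel has its own axis, which starts at 0. Crabp2, Dhrs3, Aldh1a1, Aldh1a2, Aldh1a3 and Cyp26b1 lie higher in every shARF library than in any shNT library, and Stra6, Rdh10 and Crabp1 lie lower.

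At the entry of the pathway, Stra6 (retinol uptake) and Rdh10 (retinol to retinal) were lower in shARF, and Dhrs3 (retinal to retinol) was higher. Adh7 and other dehydrogenases that act on retinol are described further on, and some of those rose. Adh1, which passed the filter through its shNT counts alone, was lower. Stra6 (ENSMUSG00000032327.14, GRCm38 chromosome 9, 58063788 to 58153996, plus strand) was at 0.335, 0.205 and 0.447 CPM in shARF, against 1.63, 2.5 and 1.46 CPM in shNT. These are 15, 9 and 20 counts in shARF and 75, 122 and 60 counts in shNT, so Stra6 was near the limit of what these libraries can measure. Every shARF library lay below every shNT library, and Stra6 fell by 2.49 on the log2 scale (SE 0.34, adjusted p = 7.34e-04, edgeR). In RNA from many cells, fewer cells that express a gene and less RNA per cell cannot be told apart, here and for every gene below.

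Rdh10 (ENSMUSG00000025921.7, chromosome 1, 16105774 to 16133734, plus strand) was at 10.6, 8.69 and 11.6 CPM in shARF and at 22.1, 22.5 and 20.8 CPM in shNT. The shARF libraries thus lay 2.12-fold lower, with more spread among them (10.3 ± 1.46 CPM in shARF and 21.8 ± 0.901 CPM in shNT). On the log2 scale the change was -1.08 (SE 0.11, 95% confidence interval -1.34 to -0.83, adjusted p = 1.53e-04, edgeR).

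Dhrs3, which returns retinal to retinol, moved the other way. This gene (ENSMUSG00000066026.14, chromosome 4, 144892827 to 144928209, plus strand) was at 49.4, 47.5 and 48.1 CPM in shARF, against 13.6, 13.2 and 12.6 CPM in shNT. The spread within each group was small (48.4 ± 0.966 CPM in shARF and 13.1 ± 0.525 CPM in shNT), and the groups were 3.68-fold apart (log2 fold change 1.88, SE 0.05, adjusted p = 4.17e-07, edgeR). Rdh10 was the higher of the pair per kilobase of merged exons in shNT, and Dhrs3 in shARF: Dhrs3 was at 16.5 ± 0.33 and Rdh10 at 2.47 ± 0.351 CPM per kb in shARF, while Dhrs3 was at 4.48 ± 0.179 and Rdh10 at 5.24 ± 0.217 CPM per kb in shNT. The ranges of Dhrs3 and Rdh10 did not overlap in either group.

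**Figure D2:**
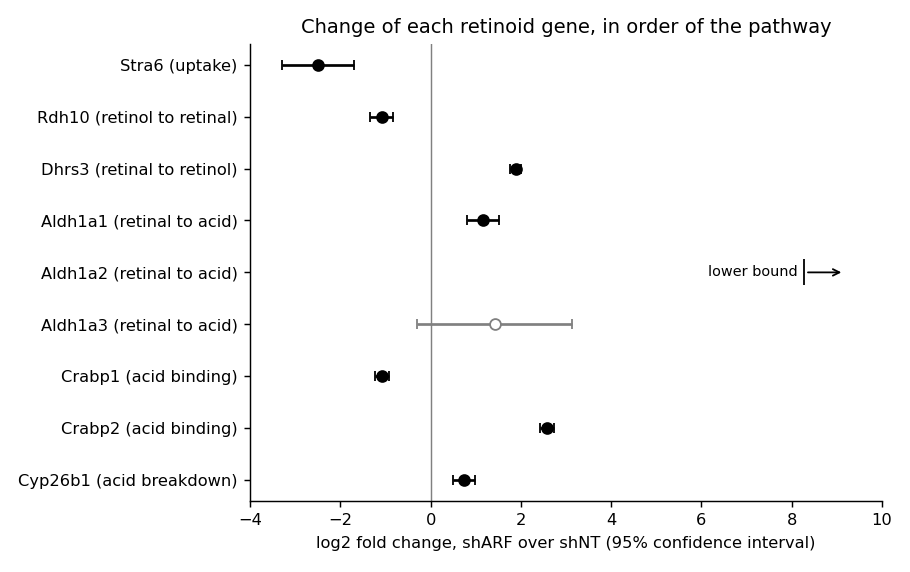
Log2 fold change of each gene, shARF over shNT, with its 95% confidence interval, listed from uptake at the top to breakdown at the bottom; filled points passed the test and the open point (Aldh1a3) did not, and the arrow for Aldh1a2 starts at its lower bound of 8.28. Stra6, Rdh10 and Crabp1 lie left of 0, and the other called genes lie right of it.

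Among the enzymes that make retinoic acid, Aldh1a2 was found in shARF alone and Aldh1a1 rose. Aldh1a2 (ENSMUSG00000013584.5, chromosome 9, 71215789 to 71296243, plus strand) was at 6.78, 6.84 and 6.93 CPM in shARF, from 304, 300 and 310 counts. It had no count in any shNT library, which allows up to 0.0221 CPM over that group (3 counts; counting error only). The gene was therefore at least 311-fold higher in shARF. No p-value is given, since the gene entered the test through its shARF counts alone. The mean in shARF was 6.85 ± 0.076 CPM, a spread narrower than counting error at this depth, so the SD understates the error.

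Aldh1a1, the form with wide adult expression, was present in both groups. Aldh1a1 (ENSMUSG00000053279.7, chromosome 19, 20492715 to 20643465, plus strand) was at 6.78, 5.02 and 5.88 CPM in shARF and at 2.61, 2.34 and 2.96 CPM in shNT. The groups did not overlap, and Aldh1a1 rose by 1.16 on the log2 scale (SE 0.15, 95% confidence interval 0.82 to 1.51, adjusted p = 5.00e-04, edgeR). Aldh1a3 (ENSMUSG00000015134.15, chromosome 7, 66390890 to 66427517, minus strand) was low, with 37, 30 and 39 counts in shARF and 21, 20 and 0 counts in shNT. Its 0 in shNT replicate 3 set the spread of that group, at 0.794 ± 0.0979 CPM in shARF and 0.289 ± 0.251 CPM in shNT. The log2 fold change of Aldh1a3 was 1.42 (SE 0.72, adjusted p = 0.137, edgeR). Without shNT replicate 3 it was 0.87 and passed the test (adjusted p = 0.0255, in a range of 0.0255 to 0.253 over the alternatives).

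Per kilobase of merged exons, the 3 enzymes summed to 4.55, 4.19 and 4.44 CPM per kb in shARF and to 0.627, 0.563 and 0.6 CPM per kb in shNT. Aldh1a2 made up 65.9%, 72.2% and 68.9% of that sum in the shARF libraries and none of it in shNT. The share of Aldh1a1 was 30.2%, 24.3% and 26.8% in shARF and 84.2%, 84.2% and 100% in shNT. The share of Aldh1a3 was 3.91 ± 0.357% in shARF and 10.5 ± 9.11% in shNT. With Aldh1a2 at 0 in shNT, the direction of its share was fixed, and what Aldh1a2 adds to the sum lowers the shares of Aldh1a1 and Aldh1a3, so no test is given. Of Aldh1a1 and Aldh1a3 alone, Aldh1a1 held 88.5%, 87.3% and 86.3% in shARF and 84.2%, 84.2% and 100% in shNT, ranges that overlapped. How large the share of Aldh1a2 was depends on the length used: its mean in shARF was 69.0% with merged exons, 52.7% with the longest transcript and 50.01% with the coding length. Over these 3 lengths the mean share of Aldh1a1 in shARF was 27.1%, 43.3% and 44.2%. With the coding length, shARF replicate 1 had more Aldh1a1 (47.9%) than Aldh1a2 (46.4%), so the order of Aldh1a2 and Aldh1a1 was not the same in every library.

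**Figure D3:**
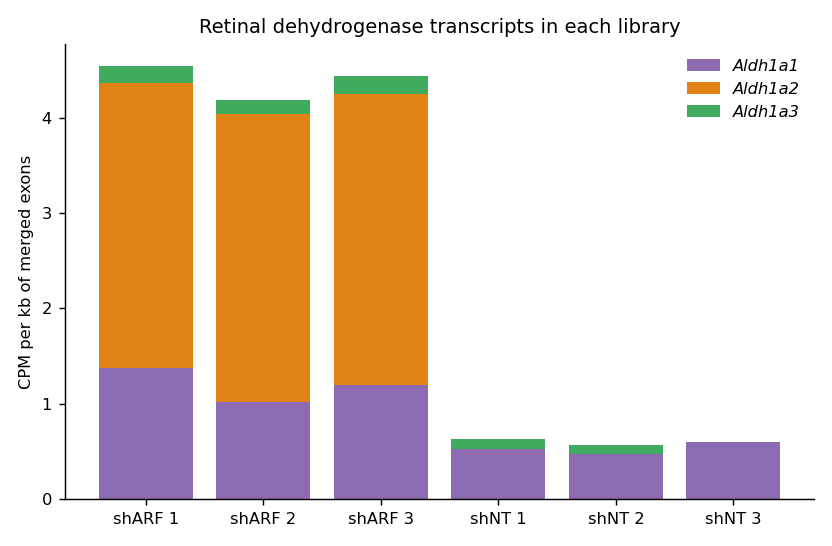
Levels of Aldh1a1, Aldh1a2 and Aldh1a3 in each library, in CPM per kb of merged exons, stacked (shARF libraries left, shNT libraries right). The Aldh1a2 segment is present in the 3 shARF libraries and absent from the 3 shNT libraries, where Aldh1a1 makes up most of a lower total.

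The 2 binding proteins of retinoic acid moved in opposite directions. Crabp2 (ENSMUSG00000004885.5, chromosome 3, 87948666 to 87953376, plus strand) was at 162, 166 and 169 CPM in shARF, against 25.2, 29.7 and 28.8 CPM in shNT. It was the most abundant of the 9 genes per length in both groups and rose 5.94-fold (log2 fold change 2.57, SE 0.06, adjusted p = 4.18e-07, edgeR). Crabp1 (ENSMUSG00000032291.8, chromosome 9, 54764748 to 54773110, plus strand) was at 8.57, 7.8 and 7.45 CPM in shARF and at 16.5, 16.9 and 16.7 CPM in shNT. Every shARF library lay below every shNT library, and the log2 fold change of Crabp1 was -1.07 (SE 0.07, 95% confidence interval -1.23 to -0.91, adjusted p = 1.67e-05, edgeR). The log2 ratio of Crabp1 to Crabp2 (not per length) was -4.24, -4.41 and -4.5 in the shARF libraries and -0.61, -0.82 and -0.78 in the shNT libraries. The mean ratio thus lay 3.65 lower in shARF on the log2 scale (exact two-sided permutation p = 0.1, the smallest that 3 against 3 libraries allow). Adjusted over 4 values, this permutation p was 0.133. The other values were the shares above, which depend on the 0 of Aldh1a2 in shNT, so the adjusted figure carries little weight. Per kilobase, Crabp2 and Crabp1 were at 125 ± 2.57 and 9.9 ± 0.714 CPM per kb in shARF. In shNT they were at 21.1 ± 1.79 and 20.8 ± 0.244 CPM per kb, with ranges that overlapped.

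Cyp26b1, the enzyme of breakdown, had the smallest fold change of the 5 genes that rose. Cyp26b1 (ENSMUSG00000063415.12, chromosome 6, 84571414 to 84593908, minus strand) was at 9.97, 10.9 and 11.5 CPM in shARF and at 7.1, 6.51 and 5.71 CPM in shNT. The groups did not overlap, and Cyp26b1 rose by 0.74 on the log2 scale (SE 0.10, adjusted p = 7.15e-04, edgeR). Its relatives Cyp26a1 (no count in any library) and Cyp26c1 (no count in shARF and 3 in shNT) were not measurable, each library's floor of 3 counts being 0.0616 to 0.0729 CPM. Cyp26b1 was therefore the one enzyme of its family measured well above the floor.

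The order of levels per kilobase of merged exons differed between the groups. In shARF it ran Crabp2, Dhrs3, Crabp1, Aldh1a2, Rdh10, Cyp26b1, Aldh1a1, Aldh1a3 and Stra6, with Rdh10 and Cyp26b1 overlapping. In shNT it ran Crabp2, Crabp1, Rdh10, Dhrs3, Cyp26b1, Aldh1a1, Stra6, Aldh1a3 and Aldh1a2, with Crabp2 and Crabp1 overlapping and Aldh1a3 reaching the 0 of Aldh1a2. The ranges of all other neighbours in these orders were apart. With the longest transcript in place of merged exons, Aldh1a1 (2.5 CPM per kb) and Cyp26b1 (2.4 CPM per kb) changed places in shARF.

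Other genes of retinoid handling moved in both directions. Of 38 further enzymes and carriers, 13 had no count in any library, among them Lrat, which esterifies retinol for storage, and Rpe65 and Rbp3, genes of the retina. Another 6 had too few counts to test. Of the 19 tested, 7 rose and 5 fell, beside 28.8% higher and 27.7% lower over all genes tested. Among the 5, Rbp2 (7, 6 and 6 counts in shARF) and Adh1 (6, 0 and 4) passed the filter through shNT alone. Their calls were thus fixed by the filter. The median change of the 19 was 0.07 on the log2 scale. The 3 with the smallest p all rose. Adh7, an alcohol dehydrogenase that can oxidise retinol, was at 89.7 ± 3.66 CPM in shARF and 36.4 ± 1.29 CPM in shNT (1.3, SE 0.05, adjusted p = 1.57e-06, edgeR). Dhrs9 and Dhrs7, dehydrogenases of the same large family as Dhrs3, were at 108 ± 2.02 and 23.6 ± 0.544 CPM in shARF and at 59.3 ± 2.03 and 12.6 ± 0.555 CPM in shNT. Outside the rule for named genes, Fabp5 and Adh1 were chosen after their values were seen. Fabp5, a fatty acid carrier that can also bind retinoic acid, rose, at 127 ± 2.63 CPM in shARF and 95 ± 3.55 CPM in shNT (0.42, adjusted p = 7.25e-05, edgeR). Adh1, another alcohol dehydrogenase, was low in both groups and lower in shARF, at 0.0745 ± 0.0682 CPM against 1.45 ± 0.4 CPM in shNT. No p-value is given for Adh1, since it entered the test through its shNT counts alone.

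**Figure D4:**
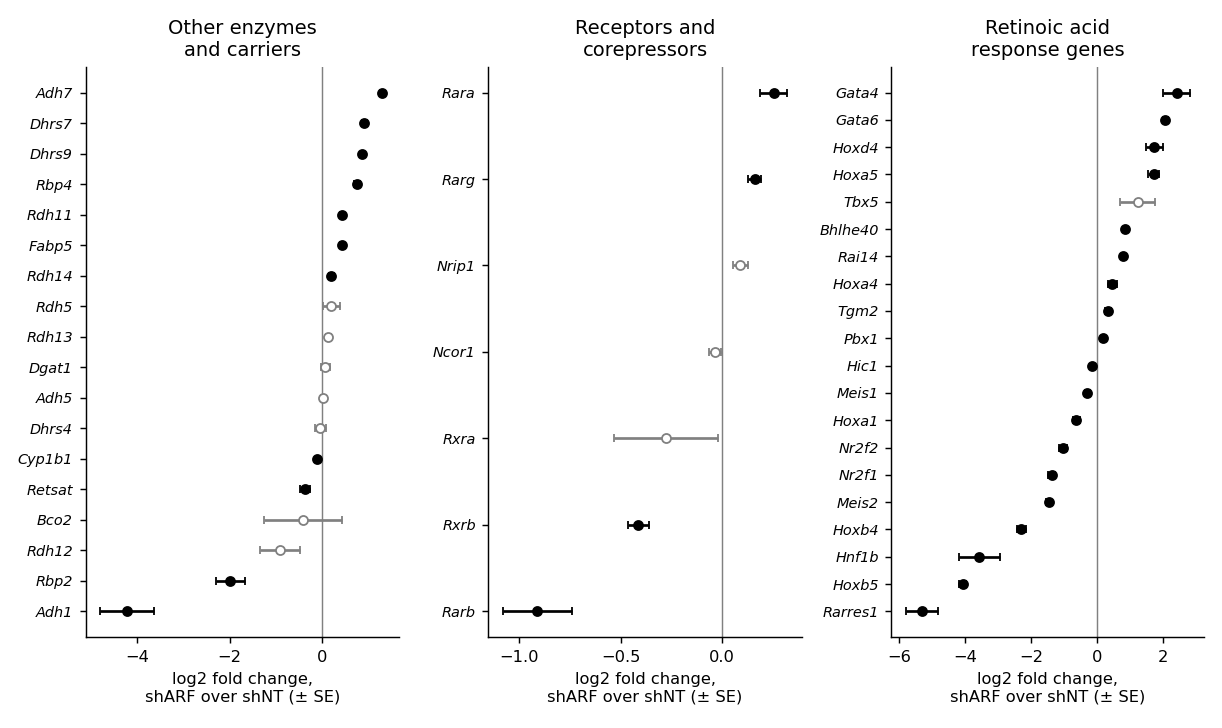
Log2 fold change (shARF over shNT, ± SE of the fit) of tested genes in 3 further lists: other retinoid enzymes and carriers (18 genes drawn), receptors and corepressors (7) and genes known to respond to retinoic acid (20); filled points passed the test. Each list has called genes on both sides of 0.

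Of 9 receptors, to which retinoic acid binds, and corepressors, 8 were tested, 3 rose and 2 fell, each by less than 2-fold, with a median of 0.03. Among all genes tested, 28.8% were called higher and 27.7% lower. With library sizes alone as the scaling 1 rose and 3 fell. Rxrb was at 34.4 ± 0.734 CPM in shARF and 45.8 ± 2.6 CPM in shNT (-0.41), and Rarb at 1.94 ± 0.433 CPM in shARF and 3.66 ± 0.102 CPM in shNT (-0.91, adjusted p = 0.0035, edgeR). The change of Rarb was -1.03 without shARF replicate 2, just past 2-fold. Rarb, a known direct target of retinoic acid, thus fell, as did Stra6, whereas Crabp2, Dhrs3 and Cyp26b1 rose. Rxra did not pass the test (111 ± 3.46 CPM in shARF and 134 ± 47.9 CPM in shNT), and its level in shNT replicate 2 lay far below that of the other two shNT libraries.

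Genes that retinoic acid is known to act on in other settings went both ways. Of 25 listed, 20 were tested, 9 rose and 10 fell, beside 28.8% higher and 27.7% lower over all genes tested. Among the rises, Gata4 (3, 3 and 6 counts in shNT) passed the filter through shARF alone. Among the falls, Rarres1 (10, 0 and 7 counts in shARF) passed it through shNT alone. The calls of Gata4 and Rarres1 were thus fixed by the filter. The median change of the 20 was 0.01 on the log2 scale. The 3 with the smallest p were Hoxb5 (0.569 ± 0.0854 CPM in shARF and 9.61 ± 0.149 CPM in shNT), Rai14 (282 ± 4.14 CPM in shARF and 164 ± 2.43 CPM in shNT) and Gata6 (45.4 ± 4.36 CPM in shARF and 10.9 ± 0.551 CPM in shNT). Gata6, a transcription factor of mesoderm and endoderm, rose by 2.06 on the log2 scale (adjusted p = 2.35e-06, edgeR), and Hoxb5 fell by 4.07 (adjusted p = 5.95e-07, edgeR). HOX genes make up 7 of the 25, and of the 6 tested 3 rose and 3 fell, beside the differences in Hoxb9 and Hoxd13 given above.

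Markers of other cell types were read beside these genes. Of 12 mesothelial markers, all 12 were tested, 8 rose and 3 fell. Beside this and the marker counts below, 28.8% of all genes tested were called higher and 27.7% lower. Upk1b, Lrrn4 and Muc16 had no count in shNT, like Aldh1a2, and were at 9.58 ± 0.61, 8.91 ± 0.615 and 3.35 ± 0.27 CPM in shARF. Upk1b, Lrrn4 and Muc16 entered the test through shARF alone, so their calls among the 8 were fixed by the filter. The same holds for Upk3b and Gpm6a, with 0, 2 and 0 counts each in shNT. Wt1 (0, 3 and 10 counts in shNT) and, among the falls, Krt18 (10, 10 and 0 counts in shARF) came close to this. Of the 8, Krt19 and Cdh3 were well counted in both groups, with log2 fold changes of 0.33 and 0.13. Wt1, a transcription factor of mesothelium and epicardium, was at 9.54 ± 0.443 CPM in shARF and 0.102 ± 0.126 CPM in shNT, and Upk3b at 12.0 ± 0.353 CPM in shARF and 0.0137 ± 0.0237 CPM in shNT. Msln, which encodes mesothelin, fell (54.4 ± 1.37 CPM in shARF and 84.2 ± 1.63 CPM in shNT), as did Krt18 (0.15 ± 0.13 CPM in shARF and 12.7 ± 1.05 CPM in shNT). The summed level of the list was 355.5 to 356.5 CPM in shARF and 332.8 to 337.8 CPM in shNT. Cdh3 was its largest part (201 ± 1.59 CPM in shARF and 185 ± 3.39 CPM in shNT), so the sum says little of the less abundant markers. The part of these markers in the rise of Aldh1a2 was not tested.

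All 10 fibroblast markers were present, summing to 20107 to 20385 CPM in shARF and 16992 to 18303 CPM in shNT, most of it Col1a1, Col1a2 and Col3a1. Of these, 5 rose and 3 fell, among them Pdgfra (91.4 ± 2.23 CPM in shARF and 502 ± 5.64 CPM in shNT) and Dcn (45.5 ± 3.55 CPM in shARF and 198 ± 5 CPM in shNT). The 4 chondrocyte markers summed to 87.7 to 91.8 CPM in shARF and 274 to 284 CPM in shNT, with 3 of 3 tested lower and Col9a1 at 0. Of 7 neural and neural crest markers, 3 were tested and 2 rose, with Sox10, Sox2 and Foxd3 at 0. They summed to 94.3 to 102 CPM in shARF and 71.1 to 74.9 CPM in shNT, nearly all of it Tubb3 and Map2. Epithelial markers summed to 6.87 to 6.98 CPM in shARF and 2.38 to 2.77 CPM in shNT (2 of 3 tested higher, Esrp1 at 0). Krt14, among those called higher, had no count in shNT, so its call was fixed by the filter. Blood and macrophage markers summed to 1.5 to 1.99 CPM in shARF and 6.73 to 7.47 CPM in shNT (2 of 2 tested lower, Adgre1 and Itgam at 0). Endothelial markers summed to 2.81 to 3.62 CPM in shARF and 2.4 to 2.99 CPM in shNT, with 1 of 2 tested higher, 1 lower, and Cdh5 and Tie1 at 0. Tek, the one called lower, had 5, 0 and 4 counts in shARF and passed the filter through shNT alone, so its call was fixed too. Skeletal muscle and hepatocyte markers stayed under 1 CPM in sum in every library.

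Of the 9 genes, Crabp1, Stra6 and Aldh1a2 lie on chromosome 9. The others lie on chromosomes 1 (Rdh10), 3 (Crabp2), 4 (Dhrs3), 6 (Cyp26b1), 7 (Aldh1a3) and 19 (Aldh1a1). The tested genes within 2 Mb of each one had median log2 fold changes between -0.12 (around Cyp26b1) and 0.21 (around Stra6). Around Aldh1a2 there were 47 tested genes with a median of 0.03, between -1.97 and 1.80. A change as large as the gene's own, in the same direction, was seen for 5 of 72 genes around Cyp26b1, 3 of 16 around Rdh10, 2 of 17 around Aldh1a1, 2 of 40 around Crabp1, 1 of 27 around Aldh1a3, 1 of 92 around Crabp2, and none of the 59 around Stra6 or the 47 around Aldh1a2. Aldh1a7, a close relative of Aldh1a1 that starts 0.2 Mb from it, was singled out after its value was seen and fell by 2.98 on the log2 scale. Reads of Aldh1a1 and Aldh1a7 may be split between them by the counting, so both values are uncertain to that extent. Dhrs3 (144892827 to 144928209) lies on the same chromosome as Cdkn2a (89274471 to 89294653), which is far outside the 2 Mb window. Around Dhrs3, 10 of 26 genes were higher and 3 lower, beside 28.8% and 27.7% of all genes tested. Of the 26, 1 rose as far as Dhrs3. The 8 of them with at least 2-fold rises, singled out after their values were seen, all lie within 2 Mb of Dhrs3, at higher coordinates, between Gm13166 at 1.12 and Gm13230 at 1.92, with Tnfrsf1b, a receptor of tumour necrosis factor, at 1.49. Zfp992, Zfp993 and Znf41-ps among them are zinc-finger genes and a pseudogene, whose reads can be shared with near-identical copies. The windows of Crabp1 and Stra6 overlap and share genes. Overlapping genes on these loci were close to empty: C730002L08Rik, which overlaps Aldh1a1 on the other strand, had 12 counts in all libraries together, and Ccdc33, which overlaps Stra6, had 2.

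**Figure D5:**
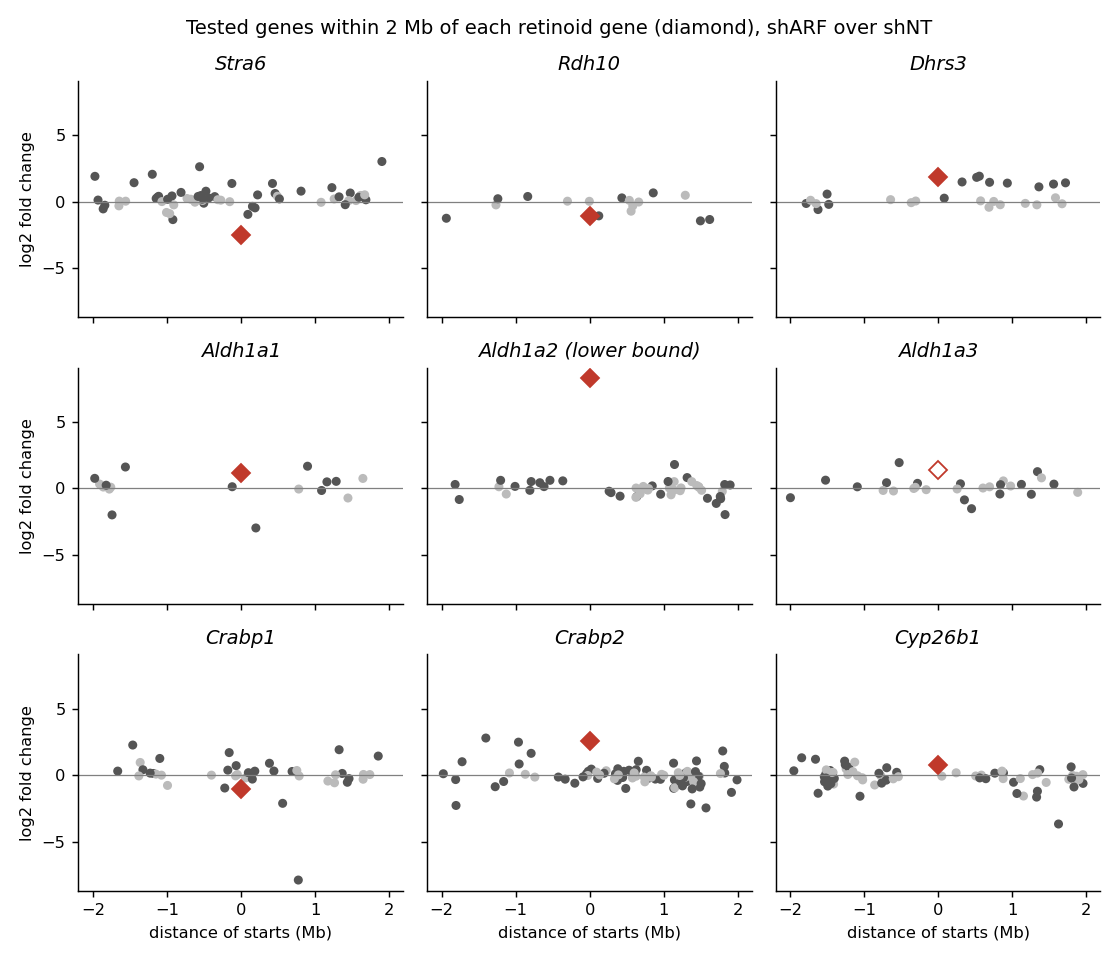
Log2 fold change (shARF over shNT) of tested genes whose start lies within 2 Mb of each retinoid gene, against the distance between the starts in Mb; dark points were called, light points were not, and the diamond is the retinoid gene itself (open for Aldh1a3, which was not called; at its lower bound for Aldh1a2). The Aldh1a2 diamond at 8.28 lies above all of its neighbours, which reach 1.80.

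Among 10420 genes averaging 5 CPM or more, the pattern most like that of Aldh1a2 over the 6 libraries belonged to Upk3b, Foxa2 and Myrf. Likeness was the root mean square distance of centred log2 CPM, at 0.40 for Upk3b, 0.43 for Foxa2 and 0.56 for Myrf. Foxa2 was at 12.4 ± 0.421 CPM in shARF, against no count in shNT, and Myrf was at 70.4 ± 5.65 CPM in shARF and 0.221 ± 0.0979 CPM in shNT. For Stra6, which fell most, the nearest were Itga1 (0.31), Rnase4 (0.31) and Sh3bgrl2 (0.32). Itga1 was at 6.94 ± 1.03 CPM in shARF and 37.7 ± 2 CPM in shNT. With 2 groups of 3 libraries, this measure mostly reflects the size of the difference between the groups.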

How the data were processed

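Whole-number counts per gene were deposited as 1 table of 54752 rows, and the values were used as deposited. Tools listed without a role in the submitters' processing notes were StringTie 1.3.2, HISAT2 2.1.0, DESeq2 1.34.0, Trim Galore 0.4.1, Picard 2.13.2 and SAMtools 0.1.19, and the build was GRCm38. Not given in the sources used here were the counting tool, annotation release, strand setting and handling of duplicates. Without strand, overlapping genes share reads, and removed duplicates would understate abundant genes. Per the labels' protocols, libraries were made from total RNA with a stranded kit that depletes ribosomal RNA. 6 further columns match no sample and were not used; shARF columns carry other index numbers than the titles and were matched on group, tag and replicate.

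Symbols, positions and lengths came from GENCODE M21 (GRCm38), in which 54723 IDs matched with the version ignored. The test was edgeR 4.0.16 (R 4.3.3; glmQLFit and glmQLFTest, group as the one term, TMM, filterByExpr defaults with a minimum count of 10 and total of 15), two-sided, with Benjamini-Hochberg adjustment over all 17128 genes tested and a threshold of 0.05. SE is the log2 fold change over the root of the F statistic, with a prior count of 0.125. A gene with no count in 1 group has a fold bound against 3 counts over that group. The steps were tested on simulated counts.

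The 9 genes, the 3 further lists and the markers were chosen with earlier results of these data known. Named genes were the 9, Cdkn2a, the 3 of each further list with the smallest p, and the 3 most like the largest rise and the largest fall. Of the genes tested in the further lists, 2 are counted but not reported here by name. Alternatives were RLE, upper-quartile and library-size scaling, no filter, a filter keeping genes that reach 1 CPM in 3 or more libraries, DESeq2 1.42.0, limma-voom (limma 3.58.1), a replicate block, a threshold of 0.01, each library left out, other gene lengths and windows of 5 Mb.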

Additional observations from a re-analysis of the deposited data

How the results depend on the processing

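The counts of 5 higher members (the call of Aldh1a2 being fixed by the filter) and 3 lower were the same under all 15 alternatives to the fit, except that 6 were higher without shNT replicate 3, where Aldh1a3 passed. With 1 library left out in turn, the log2 fold change of Aldh1a3 ran from 0.87 to 1.86, and limma-voom gave 2.48 without passing the test. Aldh1a3 was not tested where genes had to reach 1 CPM in 3 or more libraries, and the 0 in shNT replicate 3 limits what can be said of it at this depth. With library sizes alone, 1 receptor or corepressor was higher in place of 3. Another gene length changed the mean shares in shARF: with the longest transcript, Aldh1a1 held 43.3% and Aldh1a2 52.7%, and with the coding length Aldh1a1 held 44.2%, Aldh1a2 50.01% and Aldh1a3 5.83%. Windows of 5 Mb in place of 2 Mb moved the median of the genes around Aldh1a2 to 0.12, Aldh1a3 to -0.0037, Rdh10 to -0.063, Dhrs3 to 0.18, Crabp1 to 0.13 and Stra6 to 0.18, so the sign around Rdh10 and Aldh1a3, where no call rests on it, was not the same. Same-numbered libraries did not deviate together (correlations of -0.09, -0.02 and 0.0065 for replicates 1, 2 and 3). No pairing by number was thus seen, though correlations over all genes cannot exclude one that touches few genes. With the replicate block, 4604 genes were higher and 4309 lower, and the members stayed at 5 and 3. The number of genes tested was 27864 with no filter on low counts.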
